A study of Mus musculus with 8 samples.

Results

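The interferon regulatory factors are a family of transcription factors. The 8 members described here, Irf1, Irf2, Irf3, Irf4, Irf5, Irf7, Irf8 and Irf9, were taken by their symbols from the deposited expression table, which holds 20258 rows with a gene symbol. Each of the 8 had 1 row, and each varied between libraries, so all 8 were among the 13615 genes tested. They were measured in mouse bone-marrow derived macrophages, phagocytes grown in culture from marrow of C57BL/6 mice, after 24 h in 1 of 3 states: without stimulus (2 libraries), with the cytokine IL4 (3 libraries), or with a bacterial cell-wall component, lipopolysaccharide, combined with interferon gamma, written LPS plus IFNg (3 libraries). Neither a genotype nor an age is given for the animals beyond the strain, and the labels do not tie the libraries of a group to different animals or different cultures. The p-values therefore measure only the spread between these libraries, which may be technical. The values are log2 expression levels that the authors quantile normalised, from 3' end sequencing, in which a difference of 1 is a doubling. These are bulk cultures, in which fewer cells of a type and less RNA per cell cannot be told apart.

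Interferon regulatory factors share a DNA-binding domain with a run of conserved tryptophans, which reads GAAA repeats in interferon-stimulated response elements. Irf3, Irf5 and Irf7 are held inactive until sensors of microbes trigger their phosphorylation, Irf9 is the DNA-binding subunit of the complex ISGF3 downstream of the interferon receptors, and Irf1 is itself made on demand after interferon gamma binds its receptor. Irf4 and Irf8 bind DNA weakly alone and work mostly with partners of the Ets and AP-1 families. In macrophages Irf1, Irf5 and Irf8 are known for inflammatory gene expression and Irf4 for alternative activation by IL4, while Irf2 is known mainly as an antagonist of Irf1.

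Promoter windows of the members are shown because several of these genes are themselves targets of the factors that the stimuli switch on. All 8 members matched the RefSeq promoter table (GRCm38.p6), in 11 windows of 300 bases, each from 250 bases before to 50 bases after an annotated start. The first windows of 4 members follow, 5' to 3' along the gene's strand, with matches to 1 of 4 searched motifs in capitals. They belong to Irf1 (chr11:53769764-53770063, + strand), Irf8 (chr8:120736108-120736407, + strand), Irf2 (chr8:46739495-46739794, + strand) and Irf7 (chr7:141266375-141266674, - strand).
Irf1: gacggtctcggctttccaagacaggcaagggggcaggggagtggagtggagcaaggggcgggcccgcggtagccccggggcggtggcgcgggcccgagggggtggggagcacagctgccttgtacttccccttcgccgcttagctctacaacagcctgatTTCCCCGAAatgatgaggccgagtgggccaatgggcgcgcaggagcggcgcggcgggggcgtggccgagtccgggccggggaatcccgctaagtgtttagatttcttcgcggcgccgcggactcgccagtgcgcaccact
Irf8: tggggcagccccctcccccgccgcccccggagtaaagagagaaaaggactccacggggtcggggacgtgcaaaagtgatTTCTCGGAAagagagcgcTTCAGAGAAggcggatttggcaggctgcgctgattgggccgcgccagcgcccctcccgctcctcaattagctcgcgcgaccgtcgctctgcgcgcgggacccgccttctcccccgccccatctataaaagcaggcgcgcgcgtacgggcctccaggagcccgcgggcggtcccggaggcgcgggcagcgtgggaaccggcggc
Irf2: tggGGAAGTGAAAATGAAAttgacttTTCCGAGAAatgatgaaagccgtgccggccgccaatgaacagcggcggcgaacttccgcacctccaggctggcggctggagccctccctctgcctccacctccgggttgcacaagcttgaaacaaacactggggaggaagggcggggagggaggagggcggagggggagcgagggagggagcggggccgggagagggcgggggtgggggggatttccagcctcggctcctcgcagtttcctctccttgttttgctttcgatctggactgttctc
Irf7: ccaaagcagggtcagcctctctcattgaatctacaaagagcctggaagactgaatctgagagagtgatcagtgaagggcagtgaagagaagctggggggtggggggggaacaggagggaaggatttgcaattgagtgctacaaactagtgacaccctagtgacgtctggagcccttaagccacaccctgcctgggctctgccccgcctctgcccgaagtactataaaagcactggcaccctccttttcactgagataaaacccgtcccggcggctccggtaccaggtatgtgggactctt

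The motifs, searched on both strands, were the gamma-activated site TTCNNNGAA, the core of the interferon-stimulated response element (GAAA and GAAA with any 2 bases between), the wider site that Stat6 prefers (TTC and GAA with any 4 bases between), and the Ets-IRF composite element (GGAA and GAAA with any 2 bases between). Irf1 held TTCCCCGAA from -90 to -82, counted from the annotated start, and Irf8 held TTCTCGGAA from -171 to -163 and TTCAGAGAA from -153 to -145. Irf2 held TTCCGAGAA from -224 to -216 and, further upstream, the composite element GGAAGTGAAA overlapping the response element core GAAAATGAAA within 1 run of capitals. A gamma-activated site was thus present in 3 of the 11 member windows, and in 8.3% of all 32851 windows of this length. The response element core stood in 3.44% of all windows, the composite element in 2.72% and the wider Stat6 site in 6.95%. The wider site was present in 1 member window, the first of Irf9, and none of the 4 motifs was present in the windows of Irf3, Irf4, Irf5 and Irf7. A match is a run of letters, and no binding was measured.

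The macrophage label was checked against 8 marker genes, among them Csf1r, Emr1 and Cd68, and all 8 stood above 0 in every library. Their summed log2 level was 81.99 to 82.06 without stimulus, 68.76 to 70.85 with IL4 and 80.41 to 82.41 with LPS plus IFNg. With IL4 4 of 8 fell and none rose (0.793% and 0.514% of all genes), with the largest log2 changes for Fcgr1 (-3.48) and Cd14 (-2.87). With LPS plus IFNg against no stimulus 2 fell, Csf1r and Lyz2, and 1 rose (4.25% and 3.72% of all genes). The sum was lowest with IL4, but the means of Csf1r, Cd68, Itgam and Lyz2 were lowest with LPS plus IFNg (Csf1r 9.13, and 9.54 with IL4). Of 7 markers of B and plasma cells 0 to 4 stood above 0 in a library, and of 7 markers of T and NK cells 0 to 2, with Pax5, Cd3e, Cd2 and Ncr1 at 0 in all 8 libraries. Neutrophil markers summed to 42.06 to 42.11 without stimulus, 29.82 to 40.15 with IL4 and 20.00 to 22.90 with LPS plus IFNg. Of 6 tested, 3 (Ltf, S100a8 and S100a9) were lower with LPS plus IFNg than in either other state, and none was higher. Of all genes 4.25% were lower against no stimulus and 6.96% against IL4. With IL4 against no stimulus none of the neutrophil markers passed. Fibroblast markers summed to 32.87 to 33.82 without stimulus, 31.21 to 32.13 with IL4 and 28.66 to 39.90 with LPS plus IFNg. Of these 6 markers 4 to 6 stood above 0 in a library. The collagen transcripts Col1a1, Col1a2 and Col3a1 did so in every library, while Lum and Pdgfra were at 0 in some. Col1a1 had means of 9.53 without stimulus, 7.85 with IL4 and 8.14 with LPS plus IFNg, and none of the 6 passed in any comparison. The part of any of these in the results below was not tested. Between 9967 and 11837 rows stood above 0 in a library, with the most in unstimulated replicate 1, and depth is unknown.

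**Figure D1:**
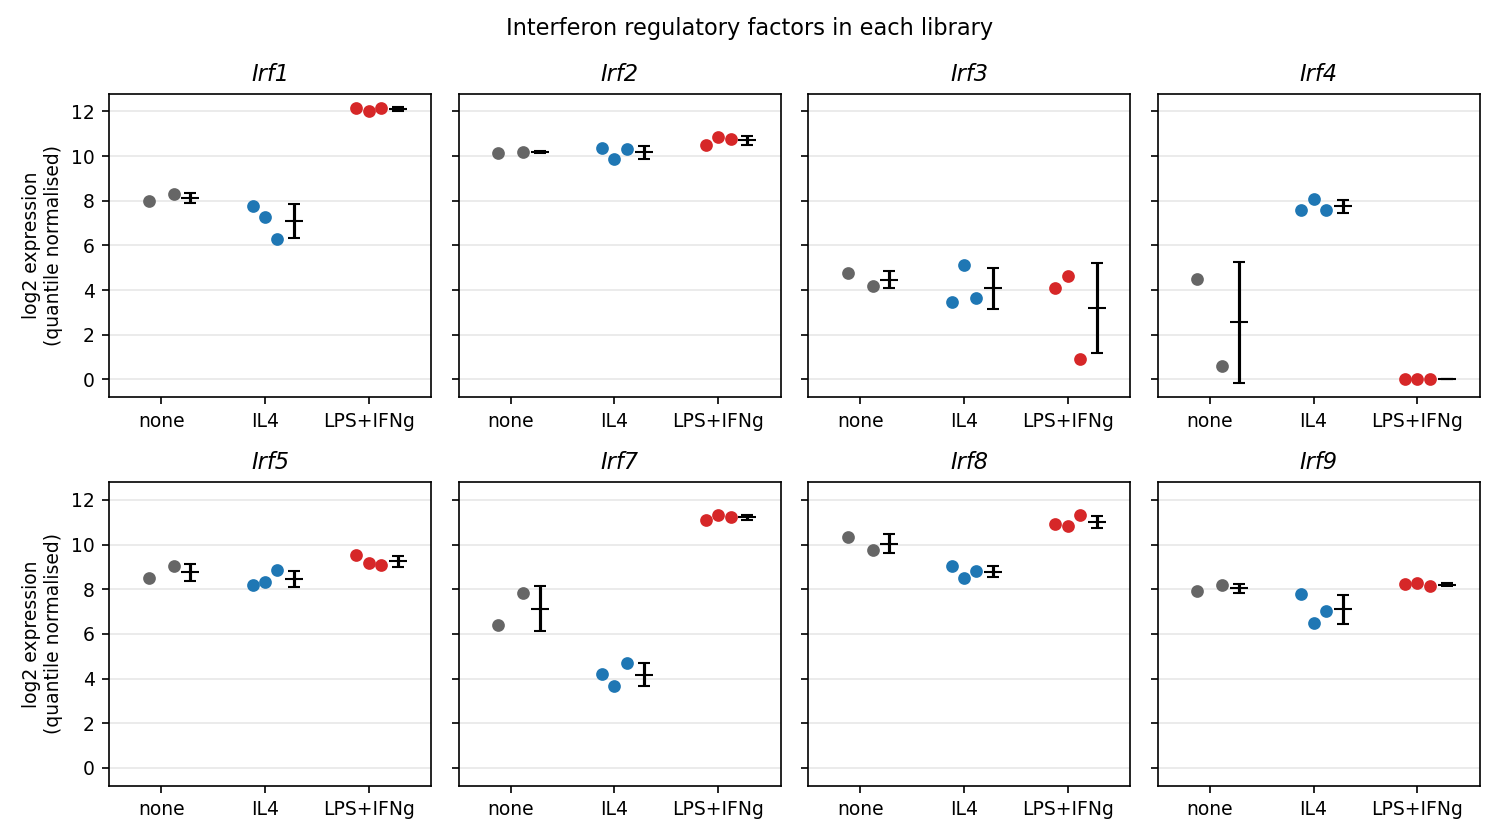
Log2 expression (vertical axis, quantile normalised) of the 8 interferon regulatory factors in each library, by stimulus (none, IL4, LPS plus IFNg). Points are libraries and the black mark and bar beside them are the mean and SD; Irf1 and Irf7 stand highest with LPS plus IFNg, while Irf4 stands highest with IL4 and is listed at 0 in the 3 LPS plus IFNg libraries.

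Irf1, the inflammatory activator of the family, was far higher with LPS plus IFNg than in either other state. It was at 7.97 and 8.28 in the unstimulated libraries, at 7.78, 7.26 and 6.28 with IL4, and at 12.16, 12.01 and 12.14 with LPS plus IFNg. The LPS plus IFNg libraries lay close together and above all others, and the IL4 libraries all lay below the unstimulated ones. Irf1 rose with LPS plus IFNg from a mean of 8.13 ± 0.22 (SD, n = 2) to 12.10 ± 0.08 (n = 3), a log2 change of 3.97 (SE 0.40, limma adjusted p = 0.0023). Against IL4 the log2 change was 4.99 (SE 0.36, limma adjusted p = 3.0e-04). The IL4 mean of 7.11 ± 0.76 (n = 3) was lower than the unstimulated mean by a log2 change of -1.02 that did not pass (95% interval -1.96 to -0.08, limma adjusted p = 0.36).

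Irf2, the antagonist that competes for the same sites, moved little. Its values were 10.15 and 10.20 without stimulus, 10.36, 9.85 and 10.31 with IL4, and 10.48, 10.86 and 10.75 with LPS plus IFNg. The unstimulated and IL4 libraries overlapped, and the LPS plus IFNg libraries lay just above both. The log2 changes were 0.52 against no stimulus (95% interval 0.02 to 1.03, limma adjusted p = 0.24), 0.53 against IL4 (0.07 to 0.98, adjusted p = 0.14) and -0.003 for IL4 against no stimulus (-0.51 to 0.50, adjusted p = 1), none past the threshold. Scaling mattered here. When libraries were set to equal means of ribosomal protein genes, the all-gene median moved up by 1.29 for LPS plus IFNg against no stimulus and by 1.20 against IL4, and Irf2 passed in both (2.06 and 2.02). With equal means of housekeeping genes that median moved up by 0.32 and 0.24, and Irf2 passed against IL4 (0.90, limma adjusted p = 0.045).

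The difference between Irf1 and Irf2 within a library does not move when 1 constant is added to all log2 values of that library. Quantile normalisation is not a shift of this kind, so the difference can depend on it. It was -2.18 and -1.92 without stimulus, -2.58, -2.59 and -4.02 with IL4, and 1.67, 1.15 and 1.39 with LPS plus IFNg. The shift from the unstimulated to the LPS plus IFNg mean was 3.45, and from the IL4 mean it was 4.47, while IL4 stood 1.01 below no stimulus (-1.01). The groups did not overlap in any of the 3 comparisons. The exact two-sided permutation p was 0.2 for the comparisons with no stimulus and 0.1 between the stimuli, in each case the smallest that the group sizes allow, and 0.2 when adjusted over the 9 tests of this kind. Only the shift between groups can be read here, since levels of different genes were not compared.

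Irf7, the factor that amplifies type I interferon production, stood lowest with IL4 and far higher with LPS plus IFNg. It was at 6.41 and 7.85 without stimulus, at 4.19, 3.68 and 4.68 with IL4, and at 11.12, 11.31 and 11.22 with LPS plus IFNg. The 3 groups did not overlap. Irf7 rose with LPS plus IFNg by a log2 change of 4.09 (SE 0.46, limma adjusted p = 0.0031). Between the stimuli the log2 change was 7.03 (SE 0.41, limma adjusted p = 1.7e-04), from 4.18 ± 0.50 (SD, n = 3) with IL4 to 11.22 ± 0.10 (n = 3).

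Irf7 also fell with IL4, with a log2 change of -2.94 (SE 0.46, limma adjusted p = 0.033), and this call was not stable. It was kept without unstimulated replicate 1 (adjusted p = 0.015) and without IL4 replicate 3 (0.047). It was lost without unstimulated replicate 2 (0.090), IL4 replicate 1 (0.077), IL4 replicate 2 (0.070) or LPS plus IFNg replicate 1 (0.073), 2 (0.085) or 3 (0.084). It was also lost with only these groups in the fit (0.22), with a replicate block (0.14), with housekeeping scaling (0.050) and without the intensity trend (0.056). The log2 change stayed between -3.66 and -2.23 over all these fits. The gene Phrf1 lies on the other strand across the 3' end of Irf7 in the GENCODE M21 annotation, and use of strand by the authors' counting was not given in the sources used here. Phrf1 had means of 6.43, 7.23 and 7.22 in the unstimulated, IL4 and LPS plus IFNg libraries, and none of its differences passed (limma adjusted p from 0.50 to 1).

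Irf3, the constitutive relative of Irf7 that is switched on by phosphorylation, stood low and varied between libraries of 1 group. It was at 4.74 and 4.19 without stimulus, at 3.47, 5.14 and 3.63 with IL4, and at 4.12, 4.61 and 0.91 with LPS plus IFNg. The groups overlapped in all 3 comparisons, and LPS plus IFNg replicate 3 stood apart from the other 7 libraries. No comparison passed in limma (adjusted p from 0.65 to 0.99). The 95% intervals were wide, from -4.22 to 1.70 for LPS plus IFNg against no stimulus, so changes of several-fold either way lie inside them. Without LPS plus IFNg replicate 3, the log2 change of Irf3 between the stimuli went from -0.87 to 0.28.

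Irf4, the factor linked to alternative activation, was clearly present with IL4 and not listed above 0 with LPS plus IFNg. It was at 4.48 and 0.62 without stimulus, at 7.58, 8.07 and 7.58 with IL4, and at 0 in all 3 LPS plus IFNg libraries. No groups overlapped, and the unstimulated libraries differed from each other by more than any other group of Irf4 values did. Irf4 was lower with LPS plus IFNg than with IL4 (limma adjusted p = 0.0037), and no fold is given against a group at 0. In that comparison it passed in all 17 alternatives (adjusted p up to 0.018).

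Against no stimulus, Irf4 with IL4 had a log2 change of 5.19 (SE 1.17, 95% interval 2.45 to 7.94) and did not pass (limma adjusted p = 0.11). Without unstimulated replicate 1 the log2 change was 7.12 and passed (adjusted p = 0.0084), and without unstimulated replicate 2 it was 3.27 and did not (0.081). With the lowest 0.25 of genes left out the change of 5.19 passed (adjusted p = 0.045). LPS plus IFNg against no stimulus did not pass either (adjusted p = 0.30), but did without unstimulated replicate 2 (0.018). Irf4 is also made by lymphocytes and dendritic cells. In IL4 replicate 1, where Irf4 was at 7.58, all 7 B and plasma cell markers and all 7 T and NK cell markers were at 0. In IL4 replicate 2, where Irf4 was highest (8.07), 3 B and plasma cell markers (summed level 11.72, the highest of the 8 libraries) and 2 T and NK cell markers (7.53, also the highest) stood above 0, and in IL4 replicate 3 the sums were 2.56 and 0. The dendritic cell factor Zbtb46 moved with Irf4: it was at 4.90, 3.97 and 4.62 with IL4, at 0 and 2.43 without stimulus and at 0 in the 3 LPS plus IFNg libraries, and was lower there than with IL4 (limma adjusted p = 0.00995). Of the other conventional dendritic cell markers in the IL4 libraries, Clec9a was at 3.897, 0 and 1.17, Flt3 at 4.74, 0 and 0, Kit at 0, 3.68 and 3.89, and Xcr1 and Cd209a were at 0. Siglech, a plasmacytoid dendritic cell marker, was at 1.90 and 4.36 without stimulus, at 2.599, 5.23 and 2.26 with IL4 and at 0 in the 3 LPS plus IFNg libraries (limma adjusted p = 0.082 against IL4). The summed level of the 6 conventional dendritic cell markers was 3.78 to 8.004 without stimulus, 7.65 to 13.54 with IL4 and 4.66 to 10.86 with LPS plus IFNg, and the plasmacytoid markers summed to 15.01 to 17.16, 12.89 to 22.58 and 10.85 to 17.95. The part of these cell types in the Irf4 result was not tested.

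Irf5, the factor that acts below Toll-like receptors in inflammatory gene expression and is known to compete with Irf4 for the adaptor Myd88, moved little. It was at 8.50 and 9.02 without stimulus, at 8.19, 8.33 and 8.85 with IL4, and at 9.53, 9.16 and 9.08 with LPS plus IFNg. The unstimulated and IL4 libraries overlapped, and the LPS plus IFNg libraries lay above both groups by a small margin. Its log2 change with LPS plus IFNg was 0.49 against no stimulus (95% interval -0.17 to 1.15, limma adjusted p = 0.40) and 0.80 against IL4 (0.21 to 1.39, adjusted p = 0.089). Both passed with ribosomal protein scaling (2.03 and 2.29), and the second with housekeeping scaling (1.17, adjusted p = 0.034). The 3' end of Irf5 is covered on the other strand by Tnpo3, whose differences did not pass (limma adjusted p from 0.50 to 0.98).

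Irf8, the lineage factor that guides monocytes and macrophages and works with partners as Irf4 does, differed between the stimuli. It was at 10.34 and 9.74 without stimulus, at 9.03, 8.52 and 8.82 with IL4, and at 10.91, 10.83 and 11.33 with LPS plus IFNg. The 3 groups did not overlap, with IL4 lowest and LPS plus IFNg highest, the same order as for Irf7. Irf8 was higher with LPS plus IFNg than with IL4 by a log2 change of 2.23 (SE 0.24, limma adjusted p = 0.0014), and this passed in all 17 alternatives (adjusted p up to 0.0071). Neither stimulus passed against no stimulus: the log2 change was -1.25 with IL4 (95% interval -1.88 to -0.62, adjusted p = 0.089) and 0.98 with LPS plus IFNg (0.35 to 1.61, adjusted p = 0.076). Without unstimulated replicate 2 the second was 0.68, and it passed with housekeeping scaling (1.42, adjusted p = 0.038), with ribosomal protein scaling (2.52) and with the lowest 0.25 of genes left out (0.98, adjusted p = 0.044). In that last fit IL4 against no stimulus passed too (-1.25, adjusted p = 0.042). Gm20388 covers the 3' end of Irf8 on the same strand in the annotation, so their reads might not be told apart. This was not checked, and Gm20388 was not analysed here.

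Irf9, the DNA-binding subunit of ISGF3, was at 7.90 and 8.18 without stimulus, at 7.79, 6.48 and 7.01 with IL4, and at 8.22, 8.26 and 8.15 with LPS plus IFNg. The unstimulated and LPS plus IFNg libraries overlapped, and the IL4 libraries lay below both. The log2 change with LPS plus IFNg was 0.17 against no stimulus (95% interval -0.69 to 1.04, limma adjusted p = 0.87), and with IL4 it was -0.94 (-1.81 to -0.08, adjusted p = 0.36). Between the stimuli it was 1.12 (0.34 to 1.89, adjusted p = 0.073), or 1.46 and past the threshold without IL4 replicate 1 (0.017). With ribosomal protein scaling Irf9 passed in both LPS plus IFNg comparisons (1.71 and 2.61).

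**Figure D2:**
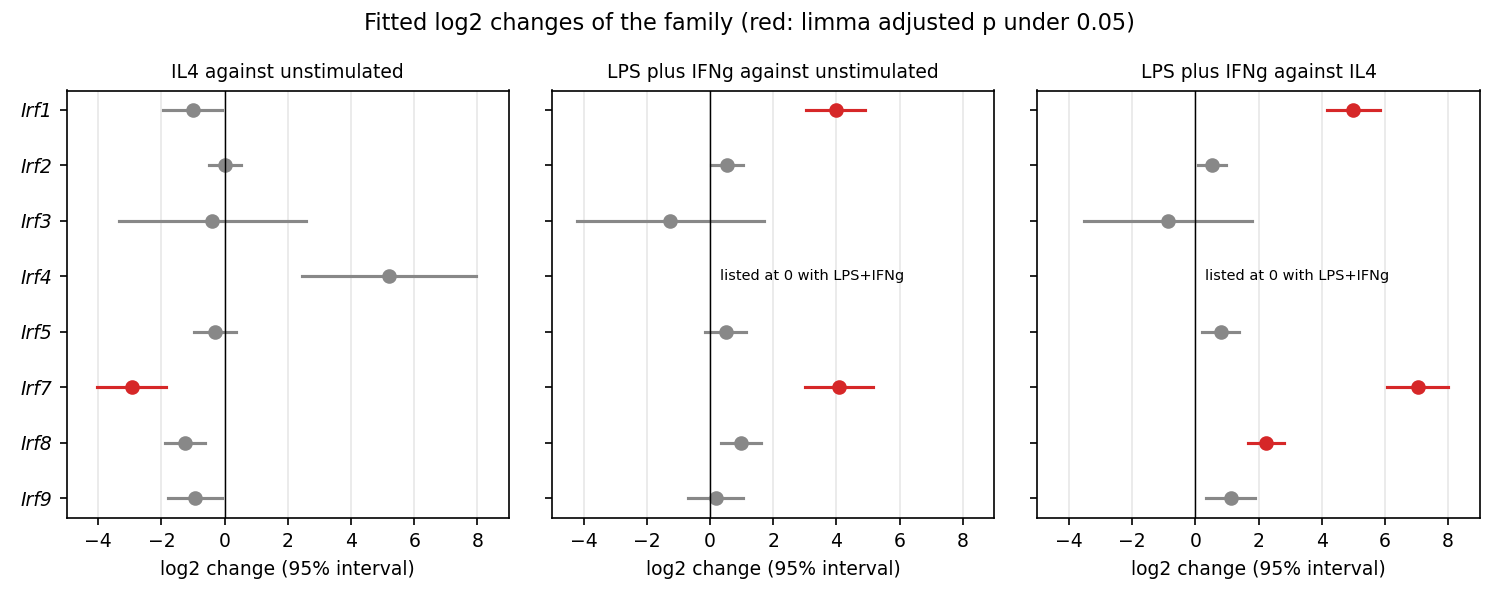
Fitted log2 changes (horizontal axis) with 95% intervals for the 8 members in the 3 comparisons; red marks limma adjusted p under 0.05. Irf1 and Irf7 stand apart with LPS plus IFNg, Irf8 joins them against IL4, and no fold is drawn for Irf4 where 1 group is listed at 0.

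Counted over the family, 1 of 8 members passed with IL4 against no stimulus, Irf7, which fell, where 1.31% of all tested genes passed (0.793% lower, 0.514% higher). None rose in limma, and at an unadjusted p under 0.05, 1 was higher (Irf4) and 4 were lower (Irf1, Irf7, Irf8 and Irf9), where 12.1% of all genes fell under that p (5.53% higher, 6.57% lower). With LPS plus IFNg against no stimulus 2 of 8 rose, Irf1 and Irf7, and none fell, where 7.97% of all genes passed (3.72% higher, 4.25% lower). At an unadjusted p under 0.05, 4 were higher and 0 lower, against 19.4% of all genes (8.47% higher, 10.9% lower). Between the stimuli 3 of 8 were higher with LPS plus IFNg, Irf1, Irf7 and Irf8, and Irf4 was lower, where 12.9% of all genes passed (5.91% higher, 6.96% lower). Unadjusted, 6 were higher and 1 lower, against 25.5% of all genes (11.6% higher, 13.9% lower). The median log2 change of the 8 was -0.67 with IL4, where that of all genes was -0.01. With LPS plus IFNg it was 0.51 against no stimulus (0.52 without Irf4) and 0.96 against IL4 (1.12 without Irf4), where those of all genes were -0.04 and 0.00. The comparisons share libraries, so their results are not independent.

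Groups of libraries did not overlap in 5 of 8 members for IL4 against no stimulus, in 6 for LPS plus IFNg against no stimulus and in 7 between the stimuli. Over all tested genes these shares were 26.5%, 36.7% and 27.1%. With IL4, 1 member was higher and 4 were lower in this way (11.7% and 14.7% of all genes). With LPS plus IFNg, 5 were higher and 1 was lower than without stimulus (16.1% and 20.7%), and 6 were higher and 1 was lower than with IL4 (12.4% and 14.8%). The exception between the stimuli was Irf3. The order IL4, no stimulus, LPS plus IFNg from lowest to highest mean held for 6 members, Irf1, Irf2, Irf5, Irf7, Irf8 and Irf9. The share of all genes with this order was not counted. For Irf2 the IL4 and unstimulated means were almost equal (10.172 and 10.175), and their difference reversed in 5 of 17 alternatives. Neighbours in that order passed as different only for Irf7 (both steps) and Irf1 (the upper step). Irf4 had the order LPS plus IFNg, no stimulus, IL4, and Irf3 had LPS plus IFNg, IL4, no stimulus.

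**Figure D3:**
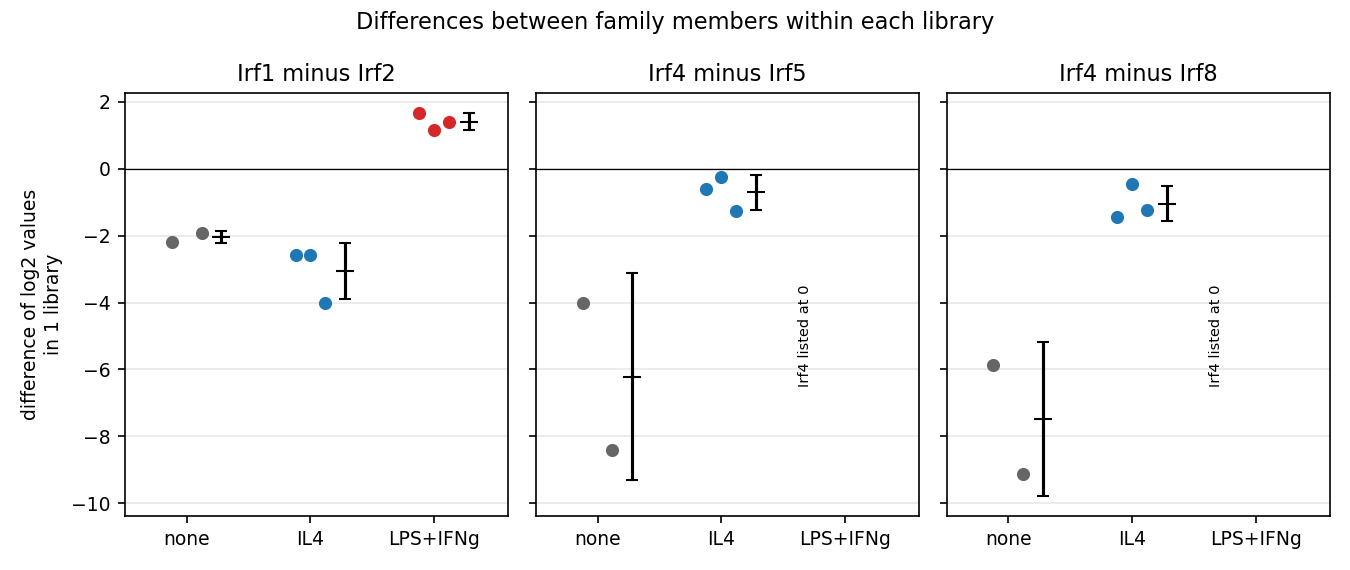
Difference of log2 values between 2 family members in the same library (vertical axis) by stimulus, with points for libraries and a mark and bar for mean and SD. Irf1 minus Irf2 is between 1.15 and 1.67 with LPS plus IFNg and negative in the other 5 libraries; differences with Irf4 are not drawn where it is listed at 0.

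Irf4 relative to Irf5 and to Irf8 shifted with IL4. Irf4 minus Irf5 was -4.02 and -8.40 in the unstimulated libraries and -0.60, -0.26 and -1.27 in the IL4 libraries. Irf4 minus Irf8 was -5.86 and -9.12 without stimulus and -1.45, -0.45 and -1.24 with IL4. The shifts of the means were 5.50 and 6.44, the groups did not overlap, and the exact permutation p was 0.2 for each, the smallest possible for 3 against 2. The wide gap between the unstimulated libraries came with the Irf4 values of 4.48 and 0.62.

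The genes around the family were described with lists of receptors, sensors, partners, brakes and textbook targets. Their counts stand against the shares of all tested genes that passed: 0.514% higher and 0.793% lower with IL4, 3.72% and 4.25% with LPS plus IFNg against no stimulus, and 5.91% and 6.96% between the stimuli. At an unadjusted p under 0.05 these shares were 5.53% and 6.57% with IL4 and 8.47% and 10.9% with LPS plus IFNg against no stimulus. Between the stimuli they were 11.6% and 13.9%. Of 10 interferon and IL4 receptor, Janus kinase and STAT genes, 3 rose and 1 fell with LPS plus IFNg. Stat2, the partner of Irf9, was at 10.40 and 10.32 without stimulus and at 13.50, 13.79 and 13.21 with LPS plus IFNg (log2 change 3.14, limma adjusted p = 0.0014). The receptor kinase Jak2 rose by 3.14 (adjusted p = 0.0036), and Il4ra, a chain of the IL4 receptor, rose by 2.86 (adjusted p = 0.039). Ifngr1, the ligand-binding chain of the interferon gamma receptor, fell by 2.19 (adjusted p = 0.012). With ribosomal protein scaling 8 rose and none fell, where 4200 of all genes rose and 215 fell. Without unstimulated replicate 2, 2 rose and none fell. The median log2 change of the list was 0.58.

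With IL4 only Jak2 of these 10 passed (log2 change 2.14, limma adjusted p = 0.046), and it was lost whichever library was left out. Stat2 was at 9.28, 8.76 and 9.50, with a log2 change of -1.18 (adjusted p = 0.11). Between the stimuli Stat2 (log2 change 4.32) and Il4ra (2.81) were higher with LPS plus IFNg and Ifngr1 was lower. Without IL4 replicate 1 or 2, 4 of the 10 were higher and 1 was lower. With ribosomal protein scaling 9 were higher, where 4778 of all genes were higher and 287 lower. In the main fit Tyk2 did not pass between the stimuli (3.29, limma adjusted p = 0.096), with IL4 values of 1.42, 5.81 and 4.97. Jak1 did not pass with LPS plus IFNg against no stimulus (0.51, limma adjusted p = 0.31).

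Of 18 sensors, adaptors and kinases upstream of Irf3, Irf5 and Irf7, none passed in limma with either stimulus against no stimulus. At an unadjusted p under 0.05, 1 was higher and 1 lower with IL4 (5.53% and 6.57% of all genes). With LPS plus IFNg 5 were higher and 0 lower at that p (8.47% and 10.9% of all genes). Ifih1, a sensor of long double-stranded RNA, stood 3.67 higher with LPS plus IFNg (adjusted p = 0.074), and Traf6 1.56 higher with IL4 (adjusted p = 0.32). Between the stimuli 4 of 18 were higher with LPS plus IFNg: Tlr9, a sensor of unmethylated DNA (5.93, limma adjusted p = 0.019), the RNA sensors Ddx58 (4.49, adjusted p = 0.0056) and Ifih1, and Tlr3. Tlr9 was at 4.74 and 4.56 without stimulus, at 0, 4.94 and 4.50 with IL4, and at 9.17, 8.99 and 9.07 with LPS plus IFNg. Its change against IL4 thus includes 1 library at 0, and against no stimulus it stood 4.43 higher (limma adjusted p = 0.11). The kinase Tbk1 did not pass between the stimuli (1.07, limma adjusted p = 0.054). These counts moved with the libraries: 1 or 2 were left without unstimulated replicate 1 or 2 or any LPS plus IFNg library. Against no stimulus 1, 2 and 1 were called without IL4 replicate 1, 2 and 3, and 1 was lower with IL4 without IL4 replicate 1. With LPS plus IFNg against no stimulus, 3 were higher with only these groups in the fit, 3 with the lowest 0.25 of genes left out and 1 with array weights. Ribosomal protein scaling gave 15 between the stimuli and 13 against no stimulus, and housekeeping scaling gave 7 and 0. Over all genes, ribosomal protein scaling gave 4778 and 4200 higher, and housekeeping scaling 1107 and 742.

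Of 6 partner factors in the table, Batf2 rose with LPS plus IFNg and Batf3 fell. Batf2, an AP-1 family protein known to pair with Irf1, was at 0 and 0.79 without stimulus, at 0, 4.09 and 3.75 with IL4, and at 7.70, 7.54 and 7.82 with LPS plus IFNg (limma adjusted p = 0.015 against no stimulus and 0.028 against IL4). Batf3 was at 3.05 and 4.41 without stimulus, at 7.53, 6.50 and 6.78 with IL4, and at 0 in the 3 LPS plus IFNg libraries (adjusted p = 0.036 and 0.0014), the same order of groups as Irf4. With IL4 against no stimulus none passed in limma (unadjusted, 1 higher), and Batf3 stood 3.20 higher (adjusted p = 0.15). Against no stimulus none was left with a replicate block, or without LPS plus IFNg replicate 2 or 3 or unstimulated replicate 2, and 1 higher call without IL4 replicate 3 or LPS plus IFNg replicate 1. Against IL4, 1 lower call was left without any 1 unstimulated or LPS plus IFNg library.

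Of 6 brakes on interferon and Irf signalling that were tested, 3 rose with LPS plus IFNg against no stimulus and the same 3 were higher than with IL4: Socs1, which blocks Janus kinases, Usp18, which removes Isg15 and damps the type I receptor, and Trim30a. Socs1 was at 3.05 and 2.14 without stimulus, at 8.35, 8.34 and 8.61 with IL4, and at 10.91, 10.80 and 11.13 with LPS plus IFNg. It rose with either stimulus, by 5.84 with IL4 (limma adjusted p = 4.9e-04) and by 8.35 with LPS plus IFNg (adjusted p = 7.4e-05). With only the IL4 and unstimulated libraries in the fit, 0 of the 6 brakes passed with IL4, so that Socs1 call was lost too. Trim30a fell with IL4 (log2 change -1.51, adjusted p = 0.031), a call lost without 1 library in 7 of 8 cases, the exception being LPS plus IFNg replicate 1. Trim21, a ligase known to act on several members, stood 2.34 higher with LPS plus IFNg (adjusted p = 0.38).

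**Figure D4:**
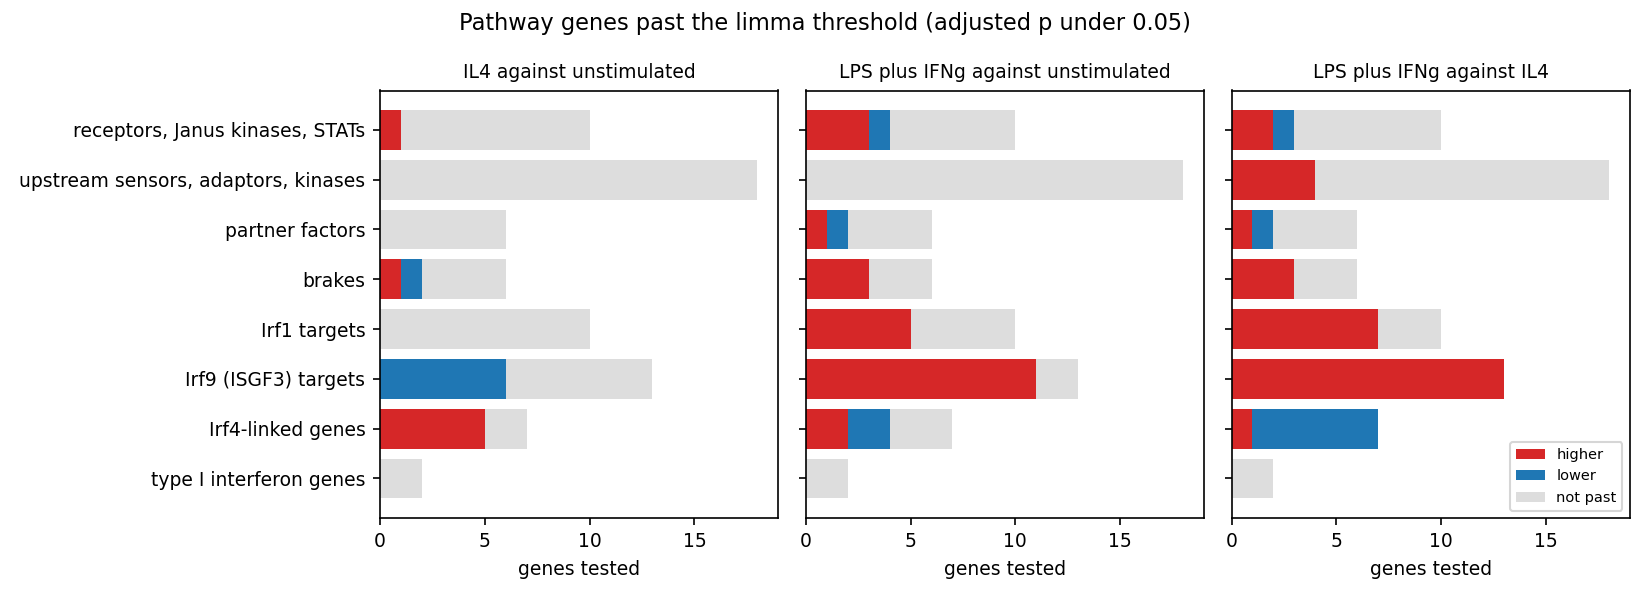
Number of genes (horizontal axis) of each pathway list that were higher, lower or not past the limma threshold in the 3 comparisons. The 13 targets of Irf9 in ISGF3 are lower in 6 cases with IL4, higher in 11 with LPS plus IFNg and higher in all 13 between the stimuli.

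Targets that textbooks assign to the members moved with the stimuli as follows, and no binding was measured. Of 10 Irf1 targets, 5 rose with LPS plus IFNg (Nos2, Il12b, Gbp2, Tap1 and Psmb9), none fell, and 7 were higher than with IL4, with Il15 and Casp1 added. Gbp2, a guanylate-binding protein of host defence, went from 6.50 and 5.51 to 13.37, 13.77 and 14.18 (log2 change 7.77, limma adjusted p = 0.0011). Il12b rose by 8.89 (adjusted p = 0.0040), and Nos2 was listed at 0 in all unstimulated and IL4 libraries and stood at 10.06 to 10.43 with LPS plus IFNg. Il12a, a subunit of interleukin 12, did not pass. None of the 10 passed with IL4 in limma, and at an unadjusted p under 0.05 none was higher and 1 was lower. The list's median log2 change with LPS plus IFNg was 2.63 against no stimulus and 3.23 against IL4, also without the 2 genes that had a group at 0.

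Of 13 targets of Irf9 in ISGF3, 11 rose with LPS plus IFNg and 13 were higher than with IL4, while Irf9 itself did not pass in either comparison. Rsad2, the antiviral enzyme viperin, was at 8.76 and 9.14 without stimulus, at 6.89, 6.89 and 6.42 with IL4, and at 16.45, 15.54 and 15.86 with LPS plus IFNg (log2 change against IL4 9.21, limma adjusted p = 2.0e-05). Ifit2 and Mx2 had log2 changes of 7.02 and 7.79, and Oas3 did not pass (3.10, adjusted p = 0.28). Without unstimulated replicate 1, 7 of the 13 rose. With IL4 6 of 13 fell, among them Oas2 (log2 change -5.73) and Rsad2 (-2.22). This count was 2 or 3 when any 1 library was left out, 1 with a replicate block and 0 with only these groups in the fit. The list's median was -2.45 with IL4 (-2.22 without the 2 genes that had a group at 0) and 5.33 with LPS plus IFNg. Usp18 belongs to this list and to the brakes.

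Of 7 alternative activation genes linked to Irf4, 5 rose with IL4, Arg1, Retnla, Chi3l3, Ccl17 and Ccl22, and 6 were lower with LPS plus IFNg than with IL4. The sixth was Mrc1, and the gene that went the other way was Kdm6b, a histone demethylase known to act on the Irf4 gene. Kdm6b was at 6.89 and 6.96 without stimulus, at 7.26, 7.32 and 6.94 with IL4, and at 8.08, 8.67 and 8.90 with LPS plus IFNg, where it rose by 1.63 (limma adjusted p = 0.016). Chi3l3 was at 6.51 and 6.08 without stimulus, at 12.22, 11.59 and 11.76 with IL4, and at 0.85, 0.88 and 2.66 with LPS plus IFNg, with the order of groups that Irf4 showed. By group means Mrc1 and Ccl17 had that order too, while Arg1, Retnla, Ccl22 and Kdm6b did not. For Ccl17 the lower step rested on unstimulated replicate 2 at 0.20, with unstimulated replicate 1 and the LPS plus IFNg libraries at 0. Arg1 rose with LPS plus IFNg too (log2 change 4.40, limma adjusted p = 0.0029). Retnla and Ccl22 had their lowest means without stimulus. Their log2 changes with LPS plus IFNg were 0.18 and 1.56 and did not pass (limma adjusted p = 0.94 and 0.50). Of the IL4 calls, 3 were left without unstimulated replicate 2 or LPS plus IFNg replicate 2, and 2 with a replicate block. Without LPS plus IFNg replicate 2 none of the 7 was called higher than with IL4. Against no stimulus, 2 of the 7 rose with LPS plus IFNg and 2 fell, and 1 higher call was left without LPS plus IFNg replicate 2 or either unstimulated library.

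Type I interferon genes, which Irf3 and Irf7 switch on, were almost not seen: 8 of 10 were listed at 0 in every library. Ifnb1 was listed at 0 in 7 libraries and at 4.62 in LPS plus IFNg replicate 3, and neither it nor Ifna12 passed in any comparison (limma; at an unadjusted p under 0.05, 0 higher and 0 lower in each).

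**Figure D5:**
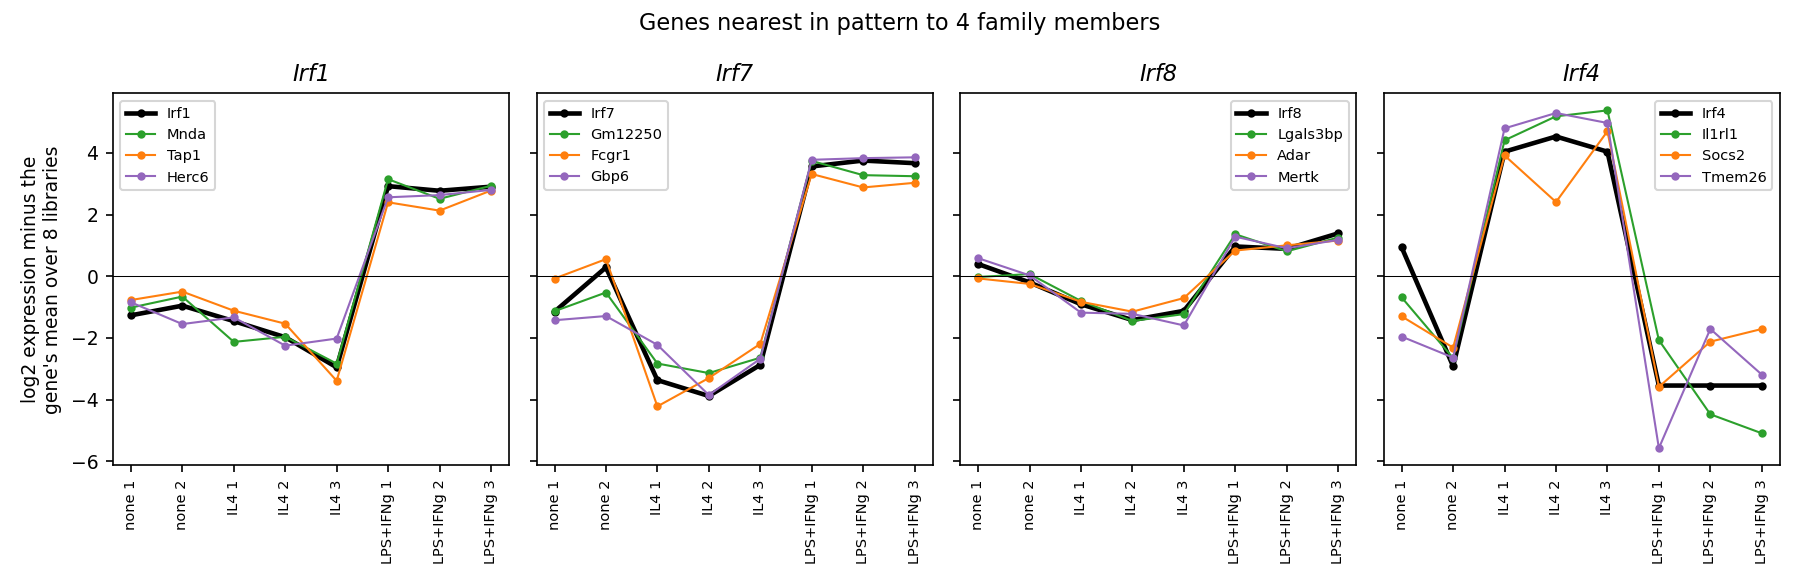
Log2 expression in each library minus the gene's own mean over the 8 libraries (vertical axis) for Irf1, Irf7, Irf8 and Irf4 (black) and the 3 genes nearest to each in pattern. The nearest genes of Irf1, Irf7 and Irf8 follow them within a root-mean-square difference of 0.71, those of Irf4 within 1.502.

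For each member the 3 genes with the most similar pattern were taken from the 7283 (7284 for Irf3 and Irf4) with a mean of at least 5, by the root-mean-square difference of their values over 8 libraries after each gene was centred on its mean. Irf1 was nearest to Mnda (difference 0.30), Tap1 (0.45) and Herc6 (0.45), and Irf7 to Gm12250 (0.50), Fcgr1 (0.71) and Gbp6 (0.71). Irf8 was nearest to Lgals3bp (0.24), Adar (0.26) and Mertk (0.27). Fcgr1 and Mertk are also among the macrophage markers. Irf4 was nearest to Il1rl1 (1.14), Socs2 (1.40) and Tmem26 (1.502). Members that moved little had close neighbours by this measure: Krr1, Brd7 and Stx4a for Irf2 (0.13 to 0.15), Sh3bp2, Llgl1 and Pkm2 for Irf5 (0.14 to 0.18), and Ep300, AI462493 and Tbc1d10b for Irf9 (0.18 to 0.22). Irf3 was nearest to Ino80c, 2410002F23Rik and Mrpl28 (0.43 to 0.61). Il1rl1, the receptor chain for interleukin 33, had means of 3.42 without stimulus, 10.08 with IL4 and 1.21 with LPS plus IFNg, and Mnda of 10.15, 8.68 and 13.85. These 8 points share library, scaling and group, so likeness is a description.

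Within the family, Irf7 ran with Irf1 (Pearson's r 0.95 over the 8 libraries) and Irf8 (0.94) and against Irf4 (-0.96), and Irf3 was the member with the weakest correlations (-0.55 to 0.29). These values follow the 3 groups of libraries and carry no test.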

How the data were processed

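Polyadenylated RNA of 8 macrophage libraries was captured on oligo-dT beads and turned into strand-specific 3' end libraries with barcoded primers, pooled by Actb, per the labels' protocols. No molecular identifiers are described. The submitters' processing notes name TopHat and mm9; the counting tool and the treatment of zeros: not given in the sources used here. The authors deposited log2 expression values, quantile normalised per the file's name. Columns were matched to samples by barcode.

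The analysis left out 1 row without a symbol and 6643 constant rows. limma 3.58.1 (R 4.3.3) was fitted to all 13615 remaining genes and 8 libraries, with a mean per group and an intensity trend (5 residual and 2.31 prior degrees of freedom). Tests were two-sided and adjusted by Benjamini and Hochberg over all genes tested, and a gene passed at 0.05; intervals are 95% and not adjusted. The fit was run on simulated data with normal noise and no floor at 0, which cannot show how it handles values at 0. Some genes of the lists are not reported here. The members and lists were chosen with earlier results of these data known. Named genes were all members; per list and comparison the 2 passing genes with the largest change and the 1 closest to passing; and the 3 nearest patterns per member. Other genes of the lists were named after their values were seen. The alternatives for list counts were added after seeing the data. Promoter windows are RefSeq's (GRCm38.p6); overlaps are from GENCODE M21, a build other than mm9. Replicate numbers are not stated to mark a shared animal or batch, and the main fit did not pair libraries by them.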

Additional observations from a re-analysis of the deposited data

How the results depend on the processing

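Each of the 24 member changes was recomputed under 17 alternatives, 408 values in all, of which 372 kept direction and side of the threshold, 10 lost the call, 17 gained one and 9 reversed. The calls of Irf1 and Irf7 with LPS plus IFNg against no stimulus, and of Irf1, Irf4, Irf7 and Irf8 between the stimuli, were kept in all 17. The 10 lost calls were all of Irf7 with IL4. For IL4 against no stimulus, 0 of 8 members were called with no trend, with only the 2 groups compared, with housekeeping scaling, at an adjusted p of 0.01, and when tested against a log2 change of 1, and 3 when the lowest 0.25 of genes were left out; leaving out 1 library gave 0 to 2. With the replicate number as a block 0 members were called there, and 2 and 4, as without the block, in the LPS plus IFNg comparisons with no stimulus and with IL4. Deviations from the group means correlated at r -0.05 to 0.03 over 7 pairs of libraries with the same number. Over 14 pairs with different numbers r was -0.03 to 0.03. The deviations of the 2 unstimulated libraries are mirror images of each other, so these values are not independent. They cannot exclude a shared animal or batch behind a number. Ribosomal protein scaling called 6 members for LPS plus IFNg against no stimulus and 7 between the stimuli. Under that scaling 4200 and 4778 of all genes were higher, and 215 and 287 lower. Leaving out 1 library gave 2 to 3 and 4 to 5 members called. The shifts of Irf1 minus Irf2, Irf4 minus Irf5 and Irf4 minus Irf8 were recomputed under fewer alternatives. They kept their direction with low values damped, with values below 0 set to 0 and with any 1 library left out. Setting values below 0 to 0 changed nothing here, since no member had a value below 0. Leaving out 1 library could not reverse a shift, since the groups did not overlap.

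The reversed values were not called. Irf2 with IL4 was at 0.036 with array weights, 0.068 with housekeeping scaling and 0.041 with ribosomal protein scaling, and between -0.099 and 0.16 with 1 library left out (0.16 without IL4 replicate 2, 0.025 without unstimulated replicate 2). Irf3 was at 0.30 with IL4 with the replicate block, at 0.62 between the stimuli and 0.28 for LPS plus IFNg against no stimulus with ribosomal protein scaling, and between -1.57 and 0.28 between the stimuli with 1 library left out (0.28 without LPS plus IFNg replicate 3). The cause was not tested. Over all genes, 178, 1085 and 1752 were called in the 3 comparisons. With 1 library left out the IL4 calls ran from 36 to 123 higher and from 45 to 183 lower. They were fewer by over 1.5 times without IL4 replicate 1 or any LPS plus IFNg library, and more by as much without either unstimulated library. The calls with LPS plus IFNg against no stimulus ran from 341 to 556 higher and from 309 to 598 lower, fewer by over 1.5 times without LPS plus IFNg replicate 2 or unstimulated replicate 2, and those between the stimuli from 580 to 774 and from 658 to 804. The total for IL4 went to 7 with only these groups in the fit and 8 with the block, and that for LPS plus IFNg against no stimulus to 255 higher and 256 lower with the block. The split of 506 higher and 579 lower for LPS plus IFNg against no stimulus became 742 and 326 with housekeeping scaling and 4200 and 215 with ribosomal protein scaling, and between the stimuli 804 and 948 became 1107 and 580, and 4778 and 287. For IL4 it went from 70 and 108 to 84 and 88 with housekeeping scaling. Depth is unknown, so values near 0 carry the least information.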
